A study of Mus musculus with 12 samples.

Results

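The genes described here are the Zfp zinc finger genes expressed in mouse embryonic stem cells (mESCs): the genes of the count tables whose symbol is Zfp followed by a number, without Zfp42, Zfp57 and Zfp352, and with a mean of at least 5 CPM (counts per 1000000, from a gene's count over the column total) in the 3 WT libraries. They are 242 of 333 such Zfp genes and of 23412 genes in all. Of the other Zfp genes, 3 were left out by name and 88 lay under the limit, 6 of those with no count in any library. The members were thus chosen by their WT level, and the same WT libraries also enter each comparison of a knockout with WT. Just inside the limit were Zfp202 at 5.08 CPM and Zfp438 at 5.09 CPM, and just outside it Zfp449 and Zfp768 at 4.94 and 4.94 CPM.

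The study sequenced poly-A RNA from 12 cultures of v6.5 male mESCs, 3 replicates for each of 4 genotypes, to ask how the loss of the nucleosome-binding proteins HMGN1 and HMGN2 changes transcript levels. The genotypes were WT, Hmgn1-/- (a homozygous 1 bp deletion in exon 3), Hmgn2-/- (a homozygous 1 bp insertion in exon 4) and Hmgn1-/-Hmgn2-/-, for which Hmgn1 was edited in the Hmgn2-/- line. All grew on gelatin in serum with LIF. Each edited line was grown from a single cell, so a genotype and the history of its 1 line cannot be told apart. The tests below measure the spread between these replicate cultures.

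The edited genes were read first, as a check of the labels. Hmgn1 stood at 674, 602 and 620.0 CPM in the WT libraries, 139, 138 and 140.3 CPM in Hmgn1-/-, 548, 555 and 621 CPM in Hmgn2-/- and 21.7, 19.9 and 21.3 CPM in Hmgn1-/-Hmgn2-/-. Both genotypes labelled as lacking Hmgn1 lay far under the other 2 in every library. Hmgn2 stood at 139, 123 and 121 CPM in the WT libraries, 106, 112 and 108 CPM in Hmgn1-/-, 51.0, 54.4 and 52.1 CPM in Hmgn2-/- and 54.3, 50.5 and 54.1 CPM in Hmgn1-/-Hmgn2-/-. Its 6 libraries labelled Hmgn2-/- or Hmgn1-/-Hmgn2-/- were all under the other 6, and the transcript of the edited allele was still counted. No library went against its label.

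Library totals ran from 17337908 counts in Hmgn2-/- replicate 3 to 31448468 counts in WT replicate 1, so that 5 CPM stood for 86.7 to 157 counts. The lowest count of any member in any library was 25. The 9 mESC marker genes, Pou5f1 the most abundant and none at 0, summed to 5944, 6148 and 6187 CPM in WT, 6083, 6202 and 6446 CPM in Hmgn1-/-, 5621, 6006 and 6369 CPM in Hmgn2-/- and 5548, 6071 and 6094 CPM in Hmgn1-/-Hmgn2-/-. The sums overlapped between all 4 genotypes, but single genes of the list moved: 4, 2 and 3 of the 9 were called by edgeR's test in Hmgn1-/-, Hmgn2-/- and Hmgn1-/-Hmgn2-/- (all genes 17.3%, 9.97% and 18.0%), and 4, 3 and 3 by DESeq2. Nanog was called lower in all 3 (log2 FCs -0.32 in Hmgn1-/-, -0.50 in Hmgn2-/- and -0.45 in Hmgn1-/-Hmgn2-/-) and Klf4 higher in all 3 (0.93 in Hmgn1-/-, 0.69 in Hmgn2-/- and 0.74 in Hmgn1-/-Hmgn2-/-). Esrrb was called higher in Hmgn1-/- and Hmgn1-/-Hmgn2-/- (0.47 in Hmgn1-/-, 0.32 in Hmgn2-/- and 0.28 in Hmgn1-/-Hmgn2-/-), and Utf1 in Hmgn1-/- (0.29 in Hmgn1-/-, 0.27 in Hmgn2-/- and 0.21 in Hmgn1-/-Hmgn2-/-). Nanog lost its call in Hmgn1-/- without Hmgn1-/- replicate 2 (edgeR's adjusted p 0.0112) and in Hmgn2-/- without WT replicate 3 (edgeR's adjusted p 0.0117). Esrrb lost its call in Hmgn1-/-Hmgn2-/- without WT replicate 2 or 3 or Hmgn1-/-Hmgn2-/- replicate 2 (edgeR's adjusted p 0.0114 to 0.0244). In Hmgn2-/- Esrrb was called higher by DESeq2, and by edgeR's test with no filter beyond 1 count, in a single fit of 12 libraries and without Hmgn2-/- replicate 3. Utf1 lost its call in Hmgn1-/- without WT replicate 3 or Hmgn1-/- replicate 2 or 3 (edgeR's adjusted p 0.0105 to 0.0296). In Hmgn1-/-Hmgn2-/- Utf1 was called higher with no filter beyond 1 count and with replicate number as a block. The 10 primitive endoderm markers, none at 0, summed to 304, 365 and 363 CPM in WT, 609, 515 and 514 CPM in Hmgn1-/-, 687, 626 and 462 CPM in Hmgn2-/- and 1201, 1174 and 1074 CPM in Hmgn1-/-Hmgn2-/-. Lamb1 was the most abundant of them in WT, Lama1 in the single knockouts and Col4a1 in the double knockout, and every knockout library was above every WT library. Called higher were 7, 7 and 10 of these 10 in Hmgn1-/-, Hmgn2-/- and Hmgn1-/-Hmgn2-/-. The 8 fibroblast markers, with Lum at 0 throughout and Postn at 0 in both single knockouts, summed to 20.3 to 25.4 CPM in WT and 8.94 to 12.8 CPM in the knockouts. Thy1, Col1a1 and Col1a2 were called lower in each knockout. Fbn1, the most abundant of the list in the knockouts, was not called (log2 FCs 0.13 in Hmgn1-/-, 0.32 in Hmgn2-/- and 0.37 in Hmgn1-/-Hmgn2-/-). The endoderm and fibroblast lists and these mESC genes move with the knockouts in the comparisons with WT below, and their part in the member results was not tested. In bulk RNA, fewer cells of a type and less RNA per cell cannot be told apart.

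Hmgn2-/- replicate 3 stood apart from its group. The chi-square per degree of freedom between libraries of a genotype, over all genes, was 34.3 and 19.5 for the pairs that hold it and 3.28 to 11.5 for the other pairs. It was also the shallowest library. Counts of members called in Hmgn2-/- are therefore also given without it.

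Zinc fingers of the C2H2 kind are short folds in which a pair of cysteines and a pair of histidines hold a zinc ion, and tandem arrays of them read DNA. Many Zfp genes lie in clusters grown by gene duplication, and many of their proteins carry a KRAB box, which recruits TRIM28 and through it the methyltransferase SETDB1 to silence retroelements and imprinted genes, in stem cells above all. Others lack the box and act as transcription factors, or bind RNA or other proteins.

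The annotated proteins of the members showed both kinds. A KRAB A box was found in 129 members and not in 112, and 1 member, Zfp862, had no coding sequence in the annotation. At least 1 C2H2 finger was found in 233 of the 241 proteins, and 134 held at least 10 fingers, 95 of those with a KRAB box. The median was 12 fingers with a KRAB box and 8 without. Members lay unevenly over the genome: chromosome 7 held 65 of them (26.9%, against 7.98% of all genes of at least 5 CPM), chromosome 17 held 30 and chromosome 8 held 18. In 23 runs of at least 3 members with gaps of at most 500 kb stood 122 of the 242. The longest runs held 12 members each, on chromosome 17 (21008903 to 22867134, GRCm38/mm10, all 12 with a KRAB box) and on chromosome 7 (29768552 to 30169750, 9 with a KRAB box). Because many members are duplicates, reads can fit more than 1 of them: of 241 members with a transcript, 120 shared no stretch of 50 bases with another gene's transcripts, 32 shared at least 10% and 10 at least 50% of such stretches. Exons on the other strand covered at least 10% of the exon bases of 24 members, and the strand setting of the counting is not stated.

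In WT mESCs the members ran from 5.08 to 535 CPM with a median of 17.8 CPM. Of the 242, 16 stood over 100 CPM, 24 at 50 to 100, 69 at 20 to 50, 66 at 10 to 20 and 67 at 5 to 10 CPM. The 5 highest by CPM were Zfp106, an RNA-binding protein needed for motor neuron upkeep (535 ± 14.7 CPM, SD, n = 3), Zfp207, which binds Bub3 at the spindle (309 ± 17.3 CPM), Zfp568, a KRAB repressor of a placental Igf2 promoter (228 ± 18.8 CPM), Zfp706, a small protein linked to exit from naive pluripotency (197 ± 1.99 CPM), and Zfp740 (177 ± 9.71 CPM). Per kb of exon, which allows genes to be compared, Zfp428 led at 121 CPM per kb, before Zfp106 (51.3), Zfp207 (46.4), Zfp706 (39.5) and Zfp598 (39.4 CPM per kb), a ubiquitin ligase that senses collided ribosomes. The Zfp706 value is less certain, since 38.9% of its 50-base stretches occur in another gene's transcripts. For Zfp106, exons on the other strand cover 26.1% of its exon bases. KRAB members were the lower class: their median was 2.63 CPM per kb, against 4.95 CPM per kb for members with no KRAB box. Zfp568, at 31.0 CPM per kb, was the highest KRAB member on this scale.

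**Figure D1:**
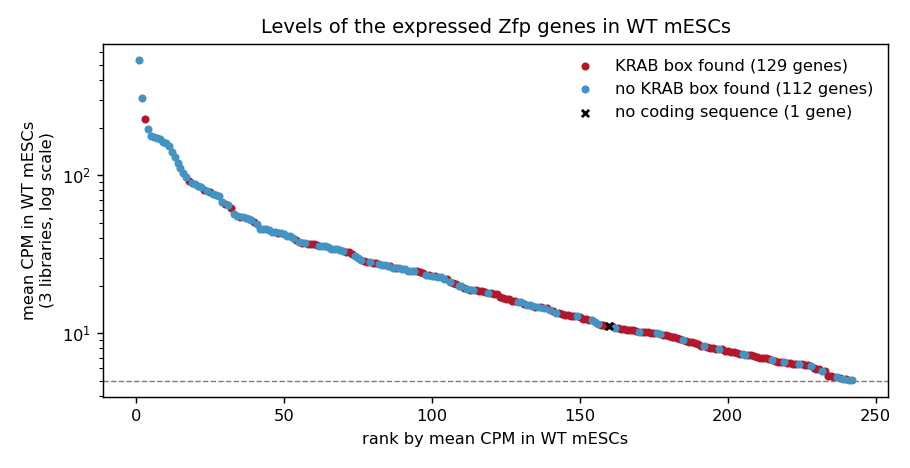
Mean CPM in the 3 WT libraries (log axis) of each member against its rank, coloured by whether a KRAB box was found in its annotated protein, with the limit of 5 CPM dashed. Members with no KRAB box fill most of the top ranks, and of the 16 members over 100 CPM, Zfp568 is the one with a KRAB box.

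Summed over the 242 members, WT libraries held 8210, 8389 and 8349 CPM, Hmgn1-/- libraries 8852, 8775 and 8626 CPM, Hmgn2-/- libraries 9019, 8692 and 7813 CPM and Hmgn1-/-Hmgn2-/- libraries 8982, 8630 and 8555 CPM. The Hmgn1-/- and Hmgn1-/-Hmgn2-/- sums lay above all WT sums, while Hmgn2-/- replicate 3 lay under them and its 2 sister libraries above. Every member had at least 1 count in every library. The sum is small in all of them, 0.781% to 0.902% of the counts of a library.

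Against WT, most members were not called. By the quasi-likelihood test of edgeR, with p-values adjusted after Benjamini and Hochberg over all genes (edgeR's adjusted p, called under 0.01), 30 of 242 members were called in Hmgn1-/- (12.4%), where 17.3% of all 13917 genes tested were. They split into 22 higher (7.28% of all genes were called higher) and 8 lower (10.1% of all genes). In Hmgn2-/- 15 members were called (6.20%, all genes 9.97%), 9 higher (all genes 3.30%) and 6 lower (all genes 6.66%). In Hmgn1-/-Hmgn2-/- 32 were called (13.2%, all genes 18.0%), 22 higher (all genes 7.79%) and 10 lower (all genes 10.2%). The members' share of calls lay under that of all genes in each knockout, and so did their share of calls lower, while their shares of calls higher (9.09%, 3.72% and 9.09%) lay near those of the genes of at least 5 CPM in WT (8.42%, 3.61% and 8.66%). With the study's further limit of a log2 fold change (FC) of at least 1 in size, 3, 5 and 4 members were called (1.24%, 2.07% and 1.65%), against 5.98%, 5.15% and 6.30% of all genes and 2.98%, 3.06% and 3.26% of the genes of at least 5 CPM in WT, the level at which members were chosen. Choosing members by the mean of all 12 libraries instead gives 1, 2 and 1, since Zfp951, Zfp608 and Zfp946, which fell, then lie under the limit. The 3 libraries of a knockout all lay on 1 side of the 3 WT libraries for 35.1%, 27.7% and 31.4% of members. This held for 41.7%, 35.3% and 42.2% of all genes tested. All 30, 15 and 32 called members were among them, so a lack of overlap adds nothing to a call.

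Median log2 FCs of the members were 0.064, 0.036 and 0.032 in Hmgn1-/-, Hmgn2-/- and Hmgn1-/-Hmgn2-/-, beside 0.0040, 0.013 and 0.0037 over all genes tested and 0.015, 0.026 and 0.014 over all genes of at least 5 CPM in WT. Over the other fits the Hmgn2-/- median ran from -0.011 to 0.055, the lowest without Hmgn2-/- replicate 1. With Hmgn2-/- replicate 3 left out, 22 members were called in Hmgn2-/- (9.09%, all genes 13.5%), 16 higher (6.61%, genes of at least 5 CPM in WT 7.09%) and 6 lower, and 5 past a log2 FC of 1. Members with a KRAB box had medians of -0.015, -0.034 and 0.0050 and 15 (9 higher), 9 (4 higher) and 17 (9 higher) calls among 129. Members with no KRAB box had medians of 0.089, 0.076 and 0.061 and 15 (13 higher), 6 (5 higher) and 15 (13 higher) calls among 112. Of all genes, 17.3%, 9.97% and 18.0% were called, with 7.28%, 3.30% and 7.79% called higher. Of genes of at least 5 CPM in WT, 8.42%, 3.61% and 8.66% were called higher. Without Hmgn2-/- replicate 3 the Hmgn2-/- calls were 10 (6 higher) with the box and 12 (10 higher) with none, at medians of 0.002 and 0.10. In that fit 13.5% of all genes were called, 5.77% higher. The difference between these 2 classes was not tested. All 3 comparisons share the WT libraries, so that a WT library far from the others would move all 3.

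**Figure D2:**
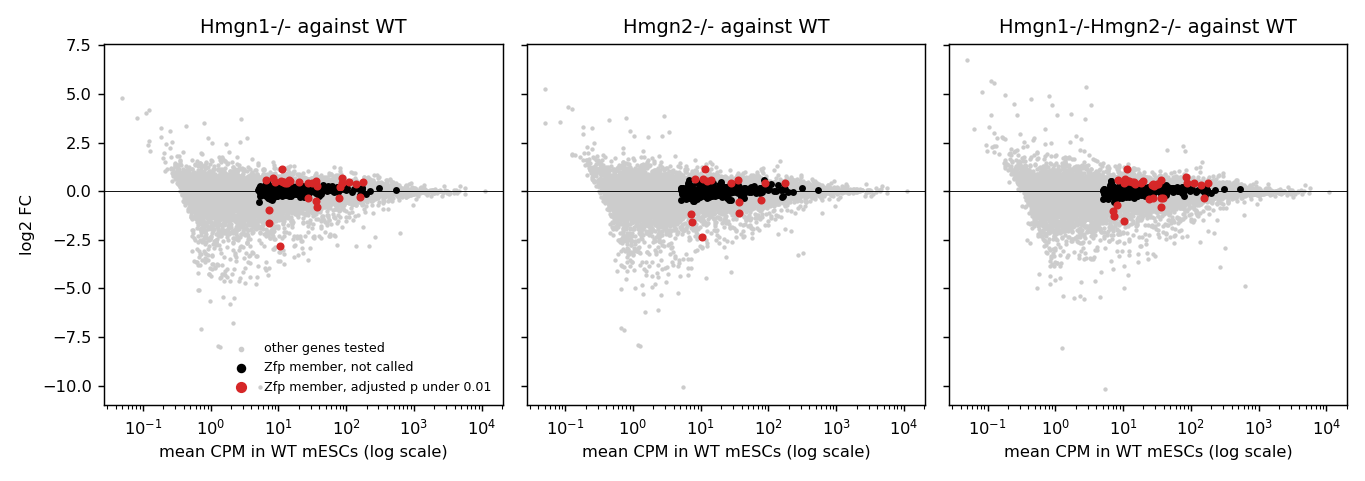
Log2 FC of each knockout against WT (vertical) over the mean CPM in WT (horizontal, log axis), for all genes tested (grey), members (black) and members with an adjusted p under 0.01 (red). Most members lie near 0, and Zfp951 is the lowest red point in each panel. In Hmgn1-/- the quartiles of the members are -0.098 and 0.19, and those of all genes of at least 5 CPM in WT are -0.13 and 0.15.

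The counts move with single libraries, as do those over all genes. In Hmgn1-/- 18 members were called without WT replicate 2, and 17 and 17 without its own replicates 1 and 2 (all genes 12.3%, 11.7% and 11.2%). In Hmgn2-/- there were 6 without WT replicate 2, 5 without WT replicate 3 and 7 without Hmgn2-/- replicate 2 (all genes 5.10%, 5.17% and 5.14%). In Hmgn1-/-Hmgn2-/- there were 19 without WT replicate 2, 15 without WT replicate 3, and 15, 19 and 20 without its own replicates 1, 2 and 3 (all genes 13.3%, 12.2%, 12.7%, 11.9% and 12.9%). With replicate number as a block, pairing the cultures of 1 number, 49, 13 and 35 members were called (20.2%, 5.37% and 14.5%), and 24.4%, 9.50% and 22.1% of all genes. In a single fit of all 12 libraries 24, 25 and 23 members were called (9.92%, 10.3% and 9.50%), and 15.03%, 15.5% and 15.7% of all genes. That fit lost the calls of Zfp870, Zfp462, Zfp110, Zfp428, Zfp36 and Zfp426 in Hmgn1-/- and of Zfp229, Zfp870, Zfp236, Zfp462, Zfp212, Zfp428, Zfp36, Zfp828, Zfp319 and Zfp26 in Hmgn1-/-Hmgn2-/-. RLE scaling lost Zfp110 and Zfp426 in Hmgn1-/-, a fit with no filter beyond 1 count lost Zfp110 there, and the block lost Zfp334 and Zfp534 in Hmgn2-/-. By DESeq2 the members' share of calls was 13.6%, 7.85% and 14.05%, beside 13.8%, 10.3% and 14.4% of all genes, and by edgeR's test with no filter beyond 1 count 14.05%, 7.02% and 15.7%, beside 16.3%, 9.66% and 16.5%, so that the gap between members and all genes depends on the fit. The all-gene shares of these 2 fits are over more genes, 18653, 18668 and 18696, beside 13917, 14047 and 14128 in the main fit. Called in every one of 11 other fits per comparison were 13, 5 and 10 members, of the 30, 15 and 32 called. How many of all genes held their call in this way was not counted. The 5 of Hmgn2-/- were Zfp951, Zfp600, Zfp946, Zfp608 and Zfp827, which were also in the other 2 sets. These 5 are the members past a log2 FC of 1 in size in at least 1 knockout, and they are described next.

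Zfp951, a gene of 10 fingers with a KRAB box (chromosome 5, 104813169 to 104860070), had the largest fall of all members in each knockout. It is a member through its WT level alone (mean of 12 libraries 4.34 CPM), so the rule that chose the members favours this fall. It stood at 9.79, 10.3 and 11.1 CPM in the WT libraries, 1.54, 1.33 and 1.5 CPM in Hmgn1-/-, 2.28, 1.89 and 1.61 CPM in Hmgn2-/- and 3.26, 3.88 and 3.597 CPM in Hmgn1-/-Hmgn2-/-. Every knockout library lay under every WT library, the Hmgn1-/- libraries were lowest, and the Hmgn1-/-Hmgn2-/- libraries stood between both single knockouts and WT with no overlap. Zfp951 had log2 FCs against WT of -2.80 (SE 0.16, edgeR's adjusted p = 4.96e-08) in Hmgn1-/-, -2.38 (SE 0.17, edgeR's adjusted p = 6.11e-06) in Hmgn2-/- and -1.53 (SE 0.14, edgeR's adjusted p = 2.32e-06) in Hmgn1-/-Hmgn2-/-. Only 1.20% of its 50-base stretches occur in another gene's transcripts.

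Zfp600 (17 fingers and a KRAB box, chromosome 4, 146156824 to 146198755) fell from a higher level. It stood at 34.6, 35.4 and 40.7 CPM in the WT libraries, 20.7, 19.99 and 21.6 CPM in Hmgn1-/-, 19.4, 16.3 and 13.4 CPM in Hmgn2-/- and 20.4, 18.9 and 22.2 CPM in Hmgn1-/-Hmgn2-/-. Knockout libraries did not reach the WT range, and the Hmgn2-/- libraries were the lowest on average, with replicate 3 at the bottom. Zfp600 had log2 FCs against WT of -0.81 (SE 0.088, edgeR's adjusted p = 1.47e-05) in Hmgn1-/-, -1.13 (SE 0.13, edgeR's adjusted p = 1.47e-04) in Hmgn2-/- and -0.83 (SE 0.093, edgeR's adjusted p = 1.7e-05) in Hmgn1-/-Hmgn2-/-. This value is uncertain as a value of 1 gene, since 83.3% of its 50-base stretches occur elsewhere, above all in Rex2, and how the counting treated reads that fit several genes is not stated. Zfp534, a second KRAB member on chromosome 4 with 68.4% of its stretches shared, stood at 75.8, 72.8 and 87.2 CPM in the WT libraries, 58.1, 59.3 and 63.6 CPM in Hmgn1-/-, 61.2, 56.1 and 53.6 CPM in Hmgn2-/- and 68.6, 60.2 and 64.9 CPM in Hmgn1-/-Hmgn2-/-. Its knockout libraries were also all under its WT libraries, by less. Zfp534 had log2 FCs against WT of -0.36 (SE 0.076, edgeR's adjusted p = 0.00271) in Hmgn1-/-, -0.43 (SE 0.091, edgeR's adjusted p = 0.00731) in Hmgn2-/- and -0.27 (SE 0.077, edgeR's adjusted p = 0.0173) in Hmgn1-/-Hmgn2-/-, called in both single knockouts. Zfp534 lost its call in Hmgn1-/- without WT replicate 3 or Hmgn1-/- replicate 1 or 2 (edgeR's adjusted p 0.0148 to 0.0198) and in Hmgn2-/- without WT replicate 1, 2 or 3 or Hmgn2-/- replicate 2 (edgeR's adjusted p 0.0148 to 0.0543). Zfp534 gained a call in Hmgn1-/-Hmgn2-/- with no filter beyond 1 count, with the replicate block and without WT replicate 1 (adjusted p 0.00530 to 0.00680).

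Zfp946 (11 fingers and a KRAB box, chromosome 17, 22424222 to 22456689) lies in the run of 12 KRAB members on chromosome 17. It stood at 7.79, 7.04 and 6.70 CPM in the WT libraries, 3.28, 3.80 and 3.82 CPM in Hmgn1-/-, 2.86, 2.87 and 3.63 CPM in Hmgn2-/- and 3.64, 3.84 and 2.92 CPM in Hmgn1-/-Hmgn2-/-. The 9 knockout libraries lay between 2.86 and 3.84 CPM, all under WT and overlapping each other. All 9 also lay under the limit of 5 CPM, so that Zfp946 is a member through its WT level alone (mean of 12 libraries 4.35 CPM), and the rule favours its fall. Zfp946 had log2 FCs against WT of -0.96 (SE 0.15, edgeR's adjusted p = 3.07e-04) in Hmgn1-/-, -1.18 (SE 0.17, edgeR's adjusted p = 7.36e-04) in Hmgn2-/- and -1.04 (SE 0.15, edgeR's adjusted p = 2.06e-04) in Hmgn1-/-Hmgn2-/-. In the same run Zfp229 (16 fingers, KRAB) stood at 32.2, 39.5 and 37.5 CPM in the WT libraries, 22.7, 27.5 and 26.6 CPM in Hmgn1-/-, 22.8, 28.2 and 21.7 CPM in Hmgn2-/- and 25.7, 28.7 and 29.3 CPM in Hmgn1-/-Hmgn2-/-. Its knockout libraries were again all under WT. Zfp229 had log2 FCs against WT of -0.48 (SE 0.10, edgeR's adjusted p = 0.00257) in Hmgn1-/-, -0.54 (SE 0.12, edgeR's adjusted p = 0.00934) in Hmgn2-/- and -0.37 (SE 0.094, edgeR's adjusted p = 0.00946) in Hmgn1-/-Hmgn2-/-. Zfp229 lost its call in Hmgn1-/- without WT replicate 2 or 3 or Hmgn1-/- replicate 1 (edgeR's adjusted p 0.0105 to 0.0176), in Hmgn2-/- without WT replicate 2 or 3 or Hmgn2-/- replicate 1 or 3 (edgeR's adjusted p 0.0111 to 0.0499) and in Hmgn1-/-Hmgn2-/- without WT replicate 2 or 3 or Hmgn1-/-Hmgn2-/- replicate 1, 2 or 3 (edgeR's adjusted p 0.0181 to 0.0470). The other 10 members of this run were called in none of the 3 knockouts, and of 10 other genes tested there 1, 0 and 0 were called, in that case lower.

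Zfp608, a member with 1 finger and no KRAB box and known for repressing Rag genes in developing T cells (chromosome 18), stood at 9.67, 6.30 and 6.03 CPM in the WT libraries, 1.85, 3.42 and 1.91 CPM in Hmgn1-/-, 3.05, 2.45 and 1.44 CPM in Hmgn2-/- and 3.52, 2.93 and 2.54 CPM in Hmgn1-/-Hmgn2-/-. WT replicate 1 was the highest and the other 2 WT libraries were close to each other, and no knockout library reached them. Zfp608 too is a member through its WT level alone (mean of 12 libraries 3.76 CPM), and the same WT values enter its tests. Zfp608 had log2 FCs against WT of -1.62 (SE 0.25, edgeR's adjusted p = 2.72e-04) in Hmgn1-/-, -1.60 (SE 0.26, edgeR's adjusted p = 0.00151) in Hmgn2-/- and -1.28 (SE 0.20, edgeR's adjusted p = 3.34e-04) in Hmgn1-/-Hmgn2-/-. It shares no 50-base stretch with another gene.

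Zfp827, a member with 10 fingers and no KRAB box that recruits the NuRD complex at telomeres of some tumour cells (chromosome 8, 79028437 to 79193766), was the member that passed the same limit upward. It stood at 13.7, 11.4 and 9.12 CPM in the WT libraries, 24.6, 29.5 and 21.5 CPM in Hmgn1-/-, 27.2, 25.7 and 19.8 CPM in Hmgn2-/- and 26.4, 24.4 and 24.5 CPM in Hmgn1-/-Hmgn2-/-. All 9 knockout libraries lay above the 3 WT libraries, among which replicate 3 was lowest. Zfp827 had log2 FCs against WT of 1.16 (SE 0.15, edgeR's adjusted p = 5.35e-05) in Hmgn1-/-, 1.12 (SE 0.16, edgeR's adjusted p = 6.61e-04) in Hmgn2-/- and 1.15 (SE 0.13, edgeR's adjusted p = 1.52e-05) in Hmgn1-/-Hmgn2-/-. Chromosome 8, on which it lies, was higher as a whole in the knockouts (described below).

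**Figure D3:**
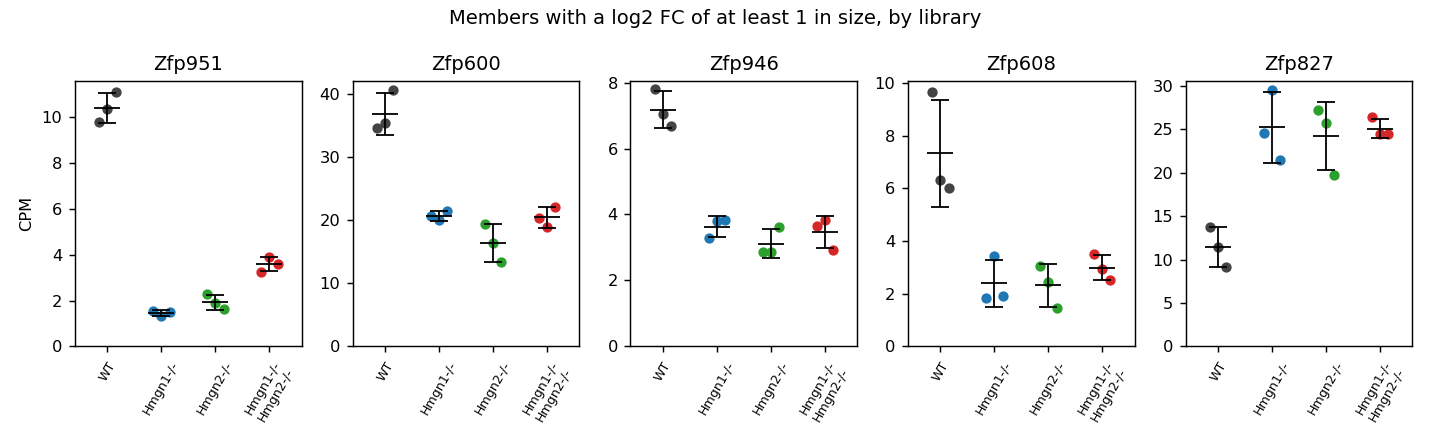
CPM in each library (points, coloured by genotype), with the mean and SD of the 3 replicates (bars), for the 5 members with a log2 FC of at least 1 in size in at least 1 knockout against WT. In each panel the 9 knockout libraries lie on 1 side of the 3 WT libraries, above them for Zfp827 and under them for the others. Taken per knockout, libraries also lie apart from WT for 41.7% (Hmgn1-/-), 35.3% (Hmgn2-/-) and 42.2% (Hmgn1-/-Hmgn2-/-) of all genes tested.

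Promoters were read from a RefSeq table (GRCm38.p6, 250 bases before to 50 after each gene's start), which held 198 of the 242 members. Member promoters had a median of 15 CG dinucleotides in 300 bases, against 22 for genes of at least 5 CPM in WT and 7 for all 27025 genes of the table. KRAB members had a median of 11 and members with no KRAB box 20. Searched on both strands, the GC box GGGCGG was in 46.5% of member promoters (35.9% of all promoters in the table), the ETS core CCGGAA in 35.9% (15.2%), CCAAT in 51.5% (37.9%), TATAAA in 7.07% (14.2%) and the E box CACGTG in 8.59% (7.24%). Among genes of at least 5 CPM these shares were 68.8%, 31.4%, 39.7%, 6.03% and 11.1%. The promoters of 3 KRAB members that fell in all 3 knockouts and of 2 members that rose are printed 5′ to 3′ on the gene's strand, with each CG in capitals, since their CG content runs from low to high among the members: Zfp951 at chr5:104859978-104860277 (- strand, 8 CG), Zfp600 at chr4:146156577-146156876 (+ strand, 5 CG), Zfp946 at chr17:22423952-22424251 (+ strand, 12 CG), Zfp827 at chr8:79028187-79028486 (+ strand, 23 CG) and Zfp777 at chr6:48047745-48048044 (- strand, 51 CG).
Zfp951: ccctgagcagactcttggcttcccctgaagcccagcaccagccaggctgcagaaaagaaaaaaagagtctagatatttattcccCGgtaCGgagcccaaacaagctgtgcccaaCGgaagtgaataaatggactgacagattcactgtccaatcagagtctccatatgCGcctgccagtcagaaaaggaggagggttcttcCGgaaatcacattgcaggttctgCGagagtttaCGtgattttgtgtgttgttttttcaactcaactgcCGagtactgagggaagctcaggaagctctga
Zfp600: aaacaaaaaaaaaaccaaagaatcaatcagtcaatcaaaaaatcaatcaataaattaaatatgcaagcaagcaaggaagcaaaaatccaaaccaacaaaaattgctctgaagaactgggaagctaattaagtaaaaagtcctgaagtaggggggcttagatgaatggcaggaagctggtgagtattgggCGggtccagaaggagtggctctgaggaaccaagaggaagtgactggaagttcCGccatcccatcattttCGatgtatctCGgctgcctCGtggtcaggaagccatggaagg
Zfp946: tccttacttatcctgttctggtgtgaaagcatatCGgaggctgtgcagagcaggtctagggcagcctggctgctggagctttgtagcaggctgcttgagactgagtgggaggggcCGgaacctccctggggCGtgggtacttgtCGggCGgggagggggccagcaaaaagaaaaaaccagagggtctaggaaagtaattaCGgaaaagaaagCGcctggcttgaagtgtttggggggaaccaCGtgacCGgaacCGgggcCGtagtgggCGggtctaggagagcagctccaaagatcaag
Zfp827: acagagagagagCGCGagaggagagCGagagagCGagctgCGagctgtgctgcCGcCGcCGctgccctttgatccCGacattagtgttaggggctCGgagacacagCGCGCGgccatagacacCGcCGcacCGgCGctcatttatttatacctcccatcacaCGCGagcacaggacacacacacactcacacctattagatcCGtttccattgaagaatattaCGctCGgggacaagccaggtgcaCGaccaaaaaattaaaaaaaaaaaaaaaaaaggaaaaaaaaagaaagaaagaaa
Zfp777: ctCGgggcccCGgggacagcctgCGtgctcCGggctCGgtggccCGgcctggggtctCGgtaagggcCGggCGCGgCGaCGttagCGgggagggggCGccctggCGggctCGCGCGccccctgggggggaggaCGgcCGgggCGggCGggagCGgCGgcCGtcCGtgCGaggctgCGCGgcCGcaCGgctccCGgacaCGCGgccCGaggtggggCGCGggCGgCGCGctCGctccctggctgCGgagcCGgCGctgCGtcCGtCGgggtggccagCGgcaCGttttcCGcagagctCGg
The Zfp600 promoter holds more CG than 4.55% of member promoters, and that of Zfp777 more than 99.0% of them. The GC box occurs in the Zfp600, Zfp946 and Zfp777 windows. The ETS core occurs in the Zfp946 and Zfp951 windows and CCAAT in those of Zfp600 and Zfp951, TATAAA in the Zfp827 window and the E box in the Zfp946 window. Whether these letters bear on the changes was not tested.

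Other KRAB members fell by less. Zfp870 (10 fingers, chromosome 17) stood at 26.2, 27.4 and 29.3 CPM in the WT libraries, 20.9, 20.7 and 22.7 CPM in Hmgn1-/-, 17.6, 22.7 and 18.8 CPM in Hmgn2-/- and 19.7, 20.8 and 23.4 CPM in Hmgn1-/-Hmgn2-/-. The WT libraries were the 3 highest. Zfp870 had log2 FCs against WT of -0.34 (SE 0.086, edgeR's adjusted p = 0.00841) in Hmgn1-/-, -0.45 (SE 0.12, edgeR's adjusted p = 0.0194) in Hmgn2-/- and -0.36 (SE 0.092, edgeR's adjusted p = 0.00910) in Hmgn1-/-Hmgn2-/-, called in Hmgn1-/- and Hmgn1-/-Hmgn2-/-. Zfp870 lost its call in Hmgn1-/- without WT replicate 2 or 3 or Hmgn1-/- replicate 1, 2 or 3 (edgeR's adjusted p 0.0105 to 0.0527) and in Hmgn1-/-Hmgn2-/- without WT replicate 2 or 3 or Hmgn1-/-Hmgn2-/- replicate 1 or 2 (edgeR's adjusted p 0.0249 to 0.0484). Zfp870 gained a call in Hmgn2-/- by DESeq2 and in the single fit (adjusted p 0.00407 to 0.00666). Zfp59 (16 fingers, chromosome 7, 52.4% of its stretches shared), Zfp317 (13 fingers, chromosome 9) and Zfp182 (14 fingers, chromosome X) were called lower in Hmgn1-/-Hmgn2-/- alone of the 3, which does not show that they differ between knockouts. Their log2 FCs were -0.30 in Hmgn1-/-, -0.36 in Hmgn2-/- and -0.41 in Hmgn1-/-Hmgn2-/- for Zfp59, -0.27 in Hmgn1-/-, -0.29 in Hmgn2-/- and -0.36 in Hmgn1-/-Hmgn2-/- for Zfp317 and -0.47 in Hmgn1-/-, -0.50 in Hmgn2-/- and -0.73 in Hmgn1-/-Hmgn2-/- for Zfp182. All 9 knockout libraries of each lay under its WT libraries. Zfp59 lost its call in Hmgn1-/-Hmgn2-/- without WT replicate 2 or 3 or Hmgn1-/-Hmgn2-/- replicate 1 or 3 (edgeR's adjusted p 0.0145 to 0.0260). Zfp317 lost its call in Hmgn1-/-Hmgn2-/- without WT replicate 3 or Hmgn1-/-Hmgn2-/- replicate 1 or 3 (edgeR's adjusted p 0.0120 to 0.0173). Zfp182 lost its call in Hmgn1-/-Hmgn2-/- without Hmgn1-/-Hmgn2-/- replicate 2 (edgeR's adjusted p 0.0104). Zfp59 gained a call in Hmgn1-/- with the replicate block and without WT replicate 1 (adjusted p 0.00814 to 0.00940) and in Hmgn2-/- in the single fit (adjusted p 0.00491). Zfp317 gained a call in Hmgn1-/- with the replicate block (adjusted p 0.00616). Zfp182 gained a call in Hmgn1-/- with the replicate block (adjusted p 0.00874). The other genes of chromosome X were lower as a group, with medians of -0.14, -0.12 and -0.13.

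Zfp428, with 1 finger and no KRAB box, was the member with the highest WT level per kb and one of 2 members without the box that were called lower. It stood at 146, 159 and 171 CPM in the WT libraries, 124, 123 and 137 CPM in Hmgn1-/-, 108, 123 and 148 CPM in Hmgn2-/- and 104, 132 and 129 CPM in Hmgn1-/-Hmgn2-/-. Hmgn2-/- replicate 3 reached the WT range, and the other 8 knockout libraries lay under it. Zfp428 had log2 FCs against WT of -0.29 (SE 0.07, edgeR's adjusted p = 0.00667) in Hmgn1-/-, -0.29 (SE 0.12, edgeR's adjusted p = 0.125) in Hmgn2-/- and -0.37 (SE 0.087, edgeR's adjusted p = 0.00563) in Hmgn1-/-Hmgn2-/-, called in Hmgn1-/- and Hmgn1-/-Hmgn2-/-. Zfp428 lost its call in Hmgn1-/- without WT replicate 2 or 3 or Hmgn1-/- replicate 1 or 2 (edgeR's adjusted p 0.0225 to 0.0463) and in Hmgn1-/-Hmgn2-/- without WT replicate 2 or 3 or Hmgn1-/-Hmgn2-/- replicate 1 or 3 (edgeR's adjusted p 0.0105 to 0.0314). A transcript on the other strand covers 17.7% of its exon bases.

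Called higher in all 3 knockouts were 9 members: Zfp827, Zfp740, Zfp64, Zfp523, Zfp647, Zfp334 and, from 1 run on chromosome 6, Zfp956, Zfp777 and Zfp746. Zfp740 (3 fingers, no KRAB box, chromosome 15), among the most abundant members, stood at 187, 174 and 169 CPM in the WT libraries, 256, 230.3 and 232 CPM in Hmgn1-/-, 245, 231 and 212 CPM in Hmgn2-/- and 249, 229 and 219 CPM in Hmgn1-/-Hmgn2-/-. Its 9 knockout libraries all lay above its 3 WT libraries. Zfp740 had log2 FCs against WT of 0.46 (SE 0.06, edgeR's adjusted p = 6.69e-05) in Hmgn1-/-, 0.41 (SE 0.077, edgeR's adjusted p = 0.00355) in Hmgn2-/- and 0.41 (SE 0.061, edgeR's adjusted p = 2.13e-04) in Hmgn1-/-Hmgn2-/-. Zfp740 lost its call in Hmgn2-/- without WT replicate 2 or 3 or Hmgn2-/- replicate 2 (edgeR's adjusted p 0.0228 to 0.0354).

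Zfp64 (13 fingers, no KRAB box, chromosome 2), a transcription factor that drives MLL expression in leukaemia cells, stood at 83.7, 88.1 and 91.3 CPM in the WT libraries, 110.0, 112 and 119 CPM in Hmgn1-/-, 108, 118 and 121 CPM in Hmgn2-/- and 115, 116 and 119 CPM in Hmgn1-/-Hmgn2-/-. WT libraries were the 3 lowest. Zfp64 had log2 FCs against WT of 0.40 (SE 0.061, edgeR's adjusted p = 2.74e-04) in Hmgn1-/-, 0.44 (SE 0.083, edgeR's adjusted p = 0.00389) in Hmgn2-/- and 0.43 (SE 0.059, edgeR's adjusted p = 1.04e-04) in Hmgn1-/-Hmgn2-/-. Zfp64 lost its call in Hmgn2-/- without WT replicate 1, 2 or 3 or Hmgn2-/- replicate 2 (edgeR's adjusted p 0.0183 to 0.0247). Zfp523 (7 fingers, no KRAB box, chromosome 17), a relative of Zfp143, stood at 15.7, 14.4 and 13.1 CPM in the WT libraries, 22.8, 19.8 and 21.3 CPM in Hmgn1-/-, 21.04, 23.1 and 19.5 CPM in Hmgn2-/- and 19.1, 20.1 and 20.6 CPM in Hmgn1-/-Hmgn2-/-. Its lowest knockout library was above its highest WT library. Zfp523 had log2 FCs against WT of 0.59 (SE 0.10, edgeR's adjusted p = 6.23e-04) in Hmgn1-/-, 0.60 (SE 0.11, edgeR's adjusted p = 0.00370) in Hmgn2-/- and 0.49 (SE 0.10, edgeR's adjusted p = 0.00213) in Hmgn1-/-Hmgn2-/-. Zfp523 lost its call in Hmgn2-/- without WT replicate 2 or 3 or Hmgn2-/- replicate 2 (edgeR's adjusted p 0.0196 to 0.0281) and in Hmgn1-/-Hmgn2-/- without WT replicate 3 or Hmgn1-/-Hmgn2-/- replicate 2 or 3 (edgeR's adjusted p 0.0118 to 0.0169).

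Off chromosome 6, the KRAB members called higher in all 3 were Zfp647 (13 fingers, chromosome 15) and Zfp334 (14 fingers, chromosome 2). Zfp647 stood at 9.41, 7.15 and 8.38 CPM in the WT libraries, 13.1, 15.1 and 11.9 CPM in Hmgn1-/-, 13.3, 12.6 and 11.7 CPM in Hmgn2-/- and 13.8, 12.2 and 11.1 CPM in Hmgn1-/-Hmgn2-/-. Zfp334 stood at 11.8, 12.8 and 12.3 CPM in the WT libraries, 15.9, 17.0 and 15.6 CPM in Hmgn1-/-, 18.3, 17.9 and 14.9 CPM in Hmgn2-/- and 19.6, 15.6 and 17.2 CPM in Hmgn1-/-Hmgn2-/-. For both, the WT libraries were the 3 lowest of the 12. Zfp647 had log2 FCs against WT of 0.69 (SE 0.13, edgeR's adjusted p = 0.00135) in Hmgn1-/-, 0.62 (SE 0.13, edgeR's adjusted p = 0.00706) in Hmgn2-/- and 0.58 (SE 0.13, edgeR's adjusted p = 0.00400) in Hmgn1-/-Hmgn2-/-. Zfp334 had log2 FCs against WT of 0.42 (SE 0.10, edgeR's adjusted p = 0.00606) in Hmgn1-/-, 0.51 (SE 0.11, edgeR's adjusted p = 0.00955) in Hmgn2-/- and 0.52 (SE 0.11, edgeR's adjusted p = 0.00206) in Hmgn1-/-Hmgn2-/-. Zfp647 lost its call in Hmgn1-/- without Hmgn1-/- replicate 2 (edgeR's adjusted p 0.0106), in Hmgn2-/- without WT replicate 2 or 3 or Hmgn2-/- replicate 1 or 2 (edgeR's adjusted p 0.0181 to 0.0372) and in Hmgn1-/-Hmgn2-/- without WT replicate 2 or 3 or Hmgn1-/-Hmgn2-/- replicate 1 or 2 (edgeR's adjusted p 0.0152 to 0.0249). Zfp334 lost its call in Hmgn1-/- without WT replicate 1, 2 or 3 or Hmgn1-/- replicate 1, 2 or 3 (edgeR's adjusted p 0.0123 to 0.0354), in Hmgn2-/- without WT replicate 1, 2 or 3 or Hmgn2-/- replicate 1 or 2 (edgeR's adjusted p 0.0279 to 0.0522) and in Hmgn1-/-Hmgn2-/- without Hmgn1-/-Hmgn2-/- replicate 1 (edgeR's adjusted p 0.0127).

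**Figure D4:**
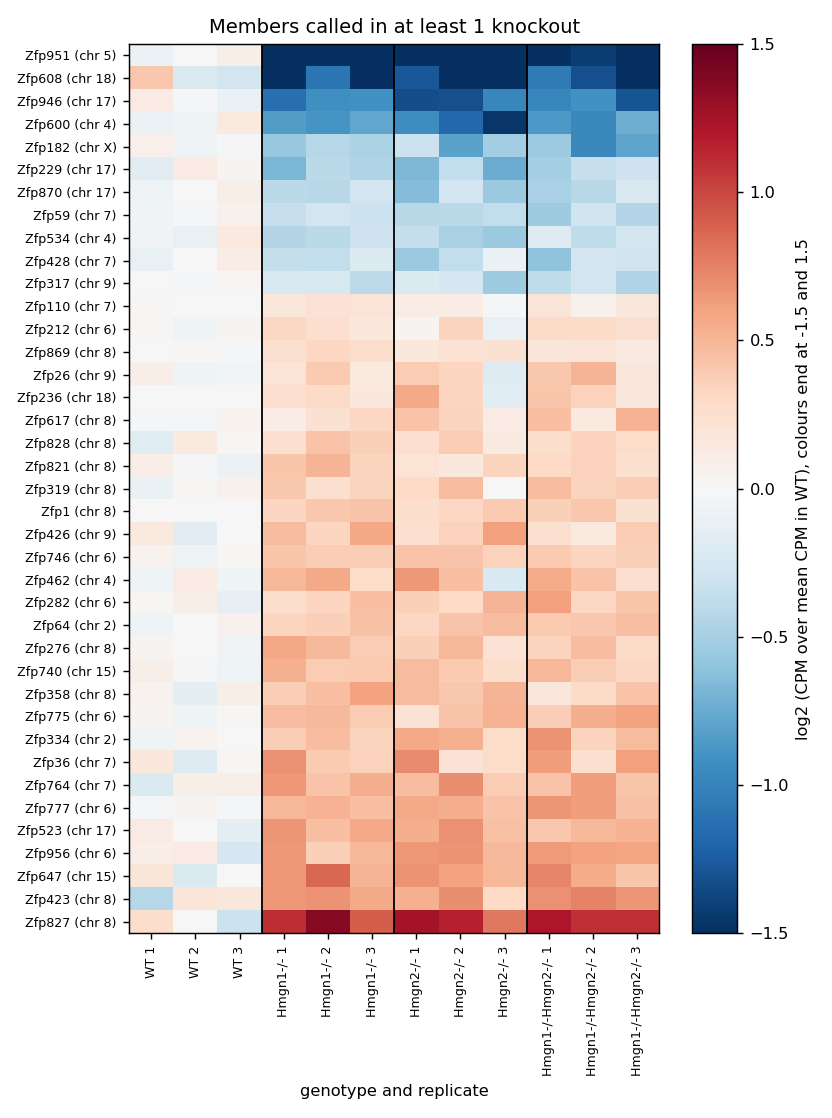
Log2 of the CPM in each library over the mean WT CPM for the 39 members called in at least 1 knockout against WT, with the chromosome of each gene, ordered by the mean over the knockout libraries. Falls (blue, 11 genes) and rises (red, 28 genes) run through the 3 knockouts, and Hmgn2-/- replicate 3 departs from its group for Zfp462, Zfp26 and Zfp236.

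Over the 3 knockouts, 39 members were called at least once (16.1%, and 22.2% of all genes tested in the 3), 28 higher and 11 lower, and 203 in none. No member was called in opposite directions. Called in all 3 were 14 members (5.79%, all genes 8.74%), the 9 rises above and 5 falls (Zfp951, Zfp608, Zfp946, Zfp600 and Zfp229), with 10 called in exactly 2 (4.13%, all genes 6.05%) and 15 in exactly 1 (6.20%, all genes 7.41%). Without Hmgn2-/- replicate 3, calls in Hmgn2-/- were gained by Zfp236 (log2 FC 0.47), Zfp462 (log2 FC 0.58), Zfp428 (log2 FC -0.44), Zfp882 (log2 FC 0.58), Zfp423 (log2 FC 0.64), Zfp276 (log2 FC 0.45), Zfp26 (log2 FC 0.37) and Zfp609 (log2 FC 0.45), at edgeR's adjusted p 3.18e-04 to 0.00892, and lost by Zfp229 (log2 FC -0.49, edgeR's adjusted p 0.0111). Zfp609 was also called higher by DESeq2, with the replicate block and with no filter beyond 1 count in both genotypes that lack Hmgn1. Its adjusted p in these fits was 0.00146 to 0.00418 in Hmgn1-/- and 0.00264 to 0.00561 in Hmgn1-/-Hmgn2-/-. The sets called in the 3 knockouts share the WT libraries, so their overlap is not evidence from independent samples. The rises not described by name elsewhere were of Zfp319, Zfp358, Zfp617, Zfp821, Zfp828, Zfp869 and Zfp276 on chromosome 8, Zfp26 and Zfp426 in 1 run on chromosome 9, and Zfp236 and Zfp764, described next. The log2 FC was under 0.5 in size for all but 13, 14 and 16 members in Hmgn1-/-, Hmgn2-/- and Hmgn1-/-Hmgn2-/-.

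Zfp764 was among the 5 largest rises in Hmgn1-/- without overlap of libraries. Log2 FCs in this paragraph are in the order Hmgn1-/-, Hmgn2-/- and Hmgn1-/-Hmgn2-/-. Zfp764 had log2 FCs of 0.57, 0.56 and 0.51, called in Hmgn1-/-. Zfp764 lost its call in Hmgn1-/- without WT replicate 1 or 2 or Hmgn1-/- replicate 1, 2 or 3 (edgeR's adjusted p 0.0112 to 0.0306). Zfp764 gained a call in Hmgn2-/- in the single fit (adjusted p 0.00480) and in Hmgn1-/-Hmgn2-/- with no filter beyond 1 count, with the replicate block, by DESeq2 and in the single fit (adjusted p 0.00481 to 0.00993). Zfp319 had log2 FCs of 0.35, 0.31 and 0.41, called in Hmgn1-/-Hmgn2-/-. Zfp319 lost its call in Hmgn1-/-Hmgn2-/- without WT replicate 1, 2 or 3 or Hmgn1-/-Hmgn2-/- replicate 1, 2 or 3 (edgeR's adjusted p 0.0201 to 0.0362). Zfp358 had log2 FCs of 0.49, 0.49 and 0.31, called in Hmgn1-/-. Zfp358 lost its call in Hmgn1-/- without WT replicate 2 or Hmgn1-/- replicate 2 or 3 (edgeR's adjusted p 0.0129 to 0.0215). Zfp358 gained a call in Hmgn2-/- with no filter beyond 1 count, by DESeq2 and in the single fit (adjusted p 0.00276 to 0.00803). Zfp617 had log2 FCs of 0.24, 0.34 and 0.40, called in Hmgn1-/-Hmgn2-/-. Zfp617 lost its call in Hmgn1-/-Hmgn2-/- without WT replicate 1, 2 or 3 or Hmgn1-/-Hmgn2-/- replicate 1 or 3 (edgeR's adjusted p 0.0117 to 0.0480). Zfp821 had log2 FCs of 0.44, 0.27 and 0.31, called in Hmgn1-/-. Zfp821 lost its call in Hmgn1-/- without WT replicate 2 or 3 or Hmgn1-/- replicate 1 or 2 (edgeR's adjusted p 0.0158 to 0.0285). Zfp828 had log2 FCs of 0.37, 0.30 and 0.31, called in Hmgn1-/- and Hmgn1-/-Hmgn2-/-. Zfp828 lost its call in Hmgn1-/- without Hmgn1-/- replicate 2 or 3 (edgeR's adjusted p 0.0154 to 0.0219) and in Hmgn1-/-Hmgn2-/- without WT replicate 1 or 3 or Hmgn1-/-Hmgn2-/- replicate 1, 2 or 3 (edgeR's adjusted p 0.0108 to 0.0374). Zfp869 had log2 FCs of 0.29, 0.24 and 0.19, called in Hmgn1-/-. Zfp869 lost its call in Hmgn1-/- without WT replicate 2 or 3 or Hmgn1-/- replicate 1, 2 or 3 (edgeR's adjusted p 0.0112 to 0.0350). Zfp276 had log2 FCs of 0.51, 0.40 and 0.38, called in Hmgn1-/- and Hmgn1-/-Hmgn2-/-. Zfp276 lost its call in Hmgn1-/-Hmgn2-/- without WT replicate 2 or 3 or Hmgn1-/-Hmgn2-/- replicate 1, 2 or 3 (edgeR's adjusted p 0.0152 to 0.0479). Zfp276 gained a call in Hmgn2-/- without Hmgn2-/- replicate 3 and in the single fit (adjusted p 0.00543 to 0.00892). Zfp26 had log2 FCs of 0.27, 0.23 and 0.38, called in Hmgn1-/-Hmgn2-/-. Zfp26 lost its call in Hmgn1-/-Hmgn2-/- without WT replicate 2 or 3 or Hmgn1-/-Hmgn2-/- replicate 1 or 2 (edgeR's adjusted p 0.0231 to 0.0411). Zfp26 gained a call in Hmgn1-/- with the replicate block and without WT replicate 1 (adjusted p 0.00892 to 0.00972) and in Hmgn2-/- without Hmgn2-/- replicate 3 (adjusted p 0.00813). Zfp426 had log2 FCs of 0.48, 0.43 and 0.27, called in Hmgn1-/-. Zfp426 lost its call in Hmgn1-/- without WT replicate 2 or 3 or Hmgn1-/- replicate 1, 2 or 3 (edgeR's adjusted p 0.0143 to 0.0492). Zfp236 had log2 FCs of 0.26, 0.31 and 0.33, called in Hmgn1-/-Hmgn2-/-. Zfp236 lost its call in Hmgn1-/-Hmgn2-/- without WT replicate 1, 2 or 3 or Hmgn1-/-Hmgn2-/- replicate 1 or 2 (edgeR's adjusted p 0.0119 to 0.0418). Zfp236 gained a call in Hmgn2-/- without Hmgn2-/- replicate 3 (adjusted p 0.00364).

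On chromosome 6 a run of 7 members (Zfp282, Zfp212, Zfp956, Zfp777, Zfp746, Zfp862 and Zfp775, 47877204 to 48623227) stood higher in the knockouts. This run was picked from the 23 runs after their values were seen, so its share of calls is a description and not a test. Summed, it held 141.3, 140.5 and 138 CPM in WT, 187, 182 and 179 CPM in Hmgn1-/-, 182, 189.9 and 171 CPM in Hmgn2-/- and 195, 187 and 183 CPM in Hmgn1-/-Hmgn2-/-. Every knockout library lay above every WT library. Called higher were 4, 3 and 6 of the 7 (all genes 7.28%, 3.30% and 7.79%), with median log2 FCs of 0.41, 0.43 and 0.48. Of 7 other genes tested in the interval, 2, 1 and 2 were called higher and 1, 0 and 0 lower, with medians of 0.34, 0.22 and 0.33, and Zfp783, whose level was too low for the list, had log2 FCs of 1.62, 1.70 and 1.81. The other genes of the whole chromosome 6 had medians of -0.019, -0.002 and -0.015.

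Zfp777 (9 fingers, KRAB), whose promoter is printed above, stood at 35.3, 37.1 and 35.4 CPM in the WT libraries, 50.6, 51.7 and 49.0 CPM in Hmgn1-/-, 53.5, 52.3 and 48.2 CPM in Hmgn2-/- and 56.9, 55.5 and 48.7 CPM in Hmgn1-/-Hmgn2-/-. The knockout libraries lay well above the narrow WT range. Zfp777 had log2 FCs against WT of 0.51 (SE 0.068, edgeR's adjusted p = 7.82e-05) in Hmgn1-/-, 0.55 (SE 0.082, edgeR's adjusted p = 9.09e-04) in Hmgn2-/- and 0.60 (SE 0.076, edgeR's adjusted p = 5.75e-05) in Hmgn1-/-Hmgn2-/-. Zfp777 lost its call in Hmgn2-/- without WT replicate 3 (edgeR's adjusted p 0.0102). Its neighbour Zfp746, a KRAB repressor of the PGC-1alpha gene and a target of parkin, stood at 28.7, 26.4 and 28.2 CPM in the WT libraries, 37.2, 35.9 and 36.0 CPM in Hmgn1-/-, 37.4, 37.4 and 35.3 CPM in Hmgn2-/- and 36.4, 34.7 and 35.6 CPM in Hmgn1-/-Hmgn2-/-. Again no knockout library entered the WT range. Zfp746 had log2 FCs against WT of 0.41 (SE 0.075, edgeR's adjusted p = 0.00100) in Hmgn1-/-, 0.44 (SE 0.086, edgeR's adjusted p = 0.00485) in Hmgn2-/- and 0.37 (SE 0.075, edgeR's adjusted p = 0.00205) in Hmgn1-/-Hmgn2-/-. Zfp746 lost its call in Hmgn2-/- without WT replicate 1, 2 or 3 or Hmgn2-/- replicate 1 or 2 (edgeR's adjusted p 0.0102 to 0.0347) and in Hmgn1-/-Hmgn2-/- without WT replicate 2 or 3 (edgeR's adjusted p 0.0104 to 0.0118).

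Zfp956 (6 fingers) stood at 11.6, 11.8 and 9.08 CPM in the WT libraries, 17.0, 13.9 and 15.2 CPM in Hmgn1-/-, 16.9, 17.3 and 15.1 CPM in Hmgn2-/- and 16.8, 16.4 and 16.3 CPM in Hmgn1-/-Hmgn2-/-. WT replicate 3 was the lowest library, and all knockout libraries were above WT. Zfp956 had log2 FCs against WT of 0.54 (SE 0.12, edgeR's adjusted p = 0.00530) in Hmgn1-/-, 0.65 (SE 0.13, edgeR's adjusted p = 0.00516) in Hmgn2-/- and 0.63 (SE 0.11, edgeR's adjusted p = 9.43e-04) in Hmgn1-/-Hmgn2-/-. Zfp956 lost its call in Hmgn1-/- without WT replicate 3 or Hmgn1-/- replicate 1 or 3 (edgeR's adjusted p 0.0199 to 0.0352) and in Hmgn2-/- without WT replicate 2 or 3 or Hmgn2-/- replicate 2 (edgeR's adjusted p 0.0140 to 0.0305). It shares 7.15% of its stretches, above all with Zfp783, whose exons overlap 9.77% of its exon bases on the same strand. Zfp775 was called in Hmgn1-/- and Hmgn1-/-Hmgn2-/-, and Zfp282 and Zfp212 in Hmgn1-/-Hmgn2-/-. Log2 FCs were 0.46 in Hmgn1-/-, 0.43 in Hmgn2-/- and 0.52 in Hmgn1-/-Hmgn2-/- for Zfp775, 0.38 in Hmgn1-/-, 0.43 in Hmgn2-/- and 0.48 in Hmgn1-/-Hmgn2-/- for Zfp282 and 0.27 in Hmgn1-/-, 0.14 in Hmgn2-/- and 0.29 in Hmgn1-/-Hmgn2-/- for Zfp212. Zfp775 lost its call in Hmgn1-/- without WT replicate 2 or 3 or Hmgn1-/- replicate 1 or 2 (edgeR's adjusted p 0.0113 to 0.0163) and in Hmgn1-/-Hmgn2-/- without Hmgn1-/-Hmgn2-/- replicate 2 or 3 (edgeR's adjusted p 0.0109 to 0.0120). Zfp282 lost its call in Hmgn1-/-Hmgn2-/- without WT replicate 3 or Hmgn1-/-Hmgn2-/- replicate 1 or 3 (edgeR's adjusted p 0.0130 to 0.0275). Zfp212 lost its call in Hmgn1-/-Hmgn2-/- without WT replicate 1, 2 or 3 or Hmgn1-/-Hmgn2-/- replicate 1, 2 or 3 (edgeR's adjusted p 0.0131 to 0.0399). Zfp775 gained a call in Hmgn2-/- in the single fit (adjusted p 0.00847). Zfp282 gained a call in Hmgn1-/- with no filter beyond 1 count and with the replicate block (adjusted p 0.00536 to 0.00799) and in Hmgn2-/- in the single fit (adjusted p 0.00915). Zfp212 gained a call in Hmgn1-/- with the replicate block (adjusted p 0.00827).

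Chromosome 8 held 8 of the 22 rises in Hmgn1-/- and 7 of the 22 in Hmgn1-/-Hmgn2-/-. Its 18 members summed to 635, 684 and 662 CPM in WT, 799, 828 and 817 CPM in Hmgn1-/-, 799, 816 and 739.6 CPM in Hmgn2-/- and 822, 815 and 811 CPM in Hmgn1-/-Hmgn2-/-. All knockout sums lay above all WT sums. Their median log2 FCs were 0.36, 0.30 and 0.31, with 8, 1 and 7 called higher, and 4 in Hmgn2-/- without its replicate 3. The rest of the chromosome moved with them: its 726, 728 and 733 other genes tested had medians of 0.26, 0.27 and 0.25, and 36.2%, 17.4% and 36.3% of them were called higher. Genes of chromosome 8 other than members took 5.74%, 5.88% and 5.85% of the counts in WT, 6.85%, 6.89% and 6.88% in Hmgn1-/-, 6.91%, 6.96% and 6.94% in Hmgn2-/- and 6.90%, 6.91% and 6.91% in Hmgn1-/-Hmgn2-/-. The 9 knockout libraries thus lay together and apart from WT, and the cause was not tested.

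Among the chromosome 8 members, Zfp423, a partner of SMAD proteins in BMP signalling and of adipocyte commitment, stood at 63.8, 97.3 and 96.7 CPM in the WT libraries, 135, 137 and 127 CPM in Hmgn1-/-, 124, 139 and 106 CPM in Hmgn2-/- and 138, 144 and 136 CPM in Hmgn1-/-Hmgn2-/-. WT replicate 1 was the lowest library, and the knockout libraries were all above WT. Zfp423 had log2 FCs against WT of 0.66 (SE 0.12, edgeR's adjusted p = 0.00103) in Hmgn1-/-, 0.56 (SE 0.15, edgeR's adjusted p = 0.0256) in Hmgn2-/- and 0.72 (SE 0.12, edgeR's adjusted p = 5.29e-04) in Hmgn1-/-Hmgn2-/-, called in Hmgn1-/- and Hmgn1-/-Hmgn2-/- and held there in each fit run. Zfp1 (KRAB) stood at 31.8, 31.6 and 31.6 CPM in the WT libraries, 39.6, 42.02 and 42.7 CPM in Hmgn1-/-, 38.2, 39.2 and 41.5 CPM in Hmgn2-/- and 40.7, 42.03 and 37.1 CPM in Hmgn1-/-Hmgn2-/-. Its WT libraries were nearly equal, and its knockout libraries were all higher. Zfp1 had log2 FCs against WT of 0.41 (SE 0.073, edgeR's adjusted p = 7.66e-04) in Hmgn1-/-, 0.36 (SE 0.088, edgeR's adjusted p = 0.0153) in Hmgn2-/- and 0.35 (SE 0.076, edgeR's adjusted p = 0.00309) in Hmgn1-/-Hmgn2-/-, called in the same 2 genotypes. Zfp1 lost its call in Hmgn1-/-Hmgn2-/- without WT replicate 2 or 3 or Hmgn1-/-Hmgn2-/- replicate 1 or 2 (edgeR's adjusted p 0.0109 to 0.0227). Zfp1 gained a call in Hmgn2-/- by DESeq2 and in the single fit (adjusted p 0.00286 to 0.00482). Without the chromosome 8 members, a choice made after these values were seen, 22 members were called in Hmgn1-/- (14 higher), 14 in Hmgn2-/- (8 higher) and 25 in Hmgn1-/-Hmgn2-/- (15 higher) among 224, and without Hmgn2-/- replicate 3 there were 18 in Hmgn2-/- (12 higher). Over all genes off chromosome 8, 5.63%, 2.53% and 6.19% were called higher, beside 6.25%, 3.57% and 6.70% of those members, and without that library the Hmgn2-/- shares were 4.40% and 5.36%. Called lower, with every library, were 10.4%, 6.92% and 10.6% of all genes off chromosome 8, beside 3.57%, 2.68% and 4.46% of those members.

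**Figure D5:**
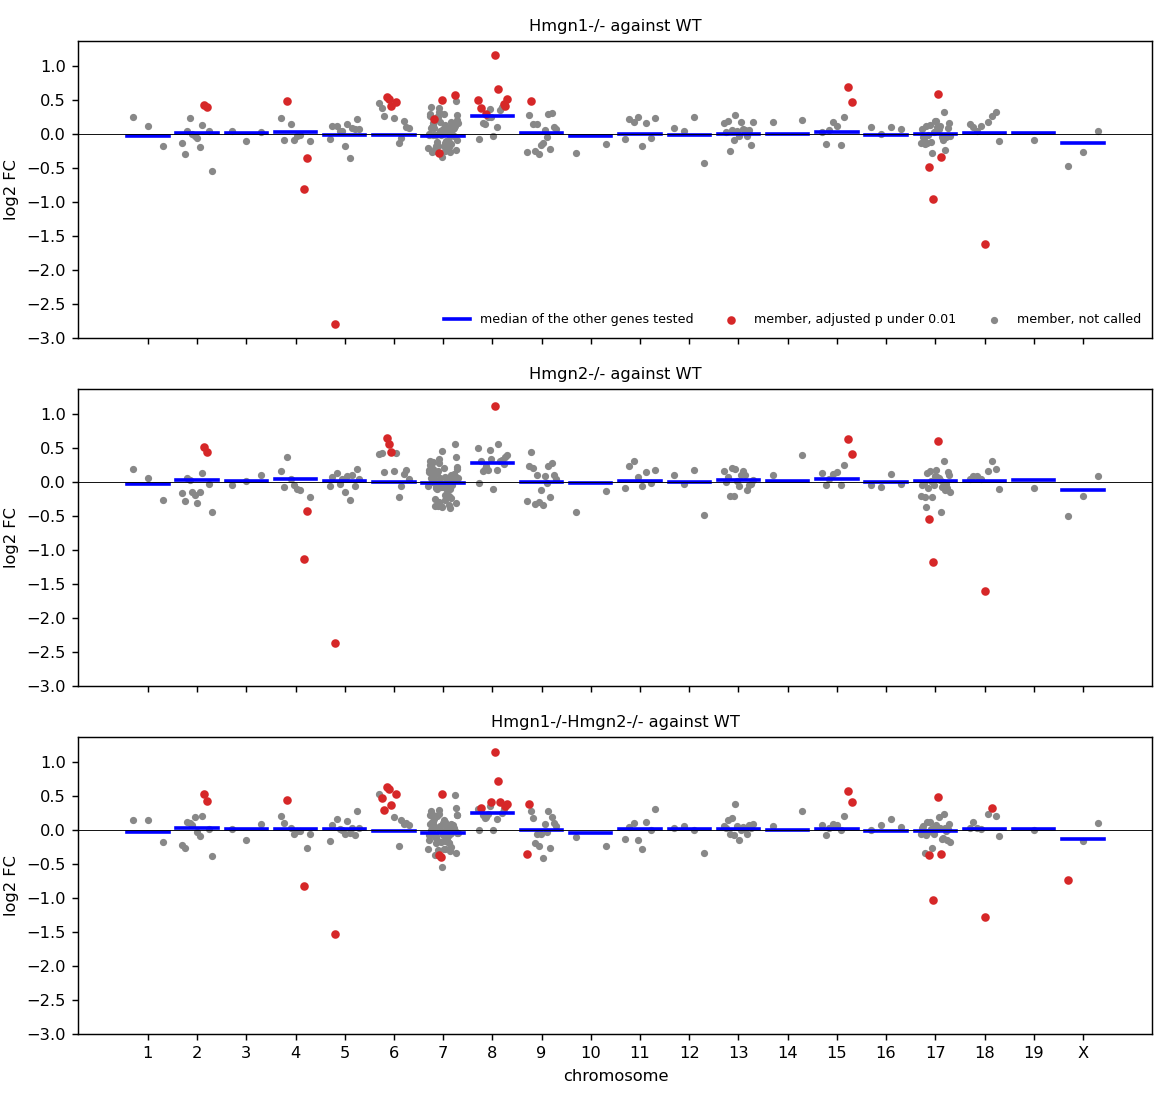
Log2 FC against WT of each member by chromosome for the 3 knockouts, called members in red, with the median of the other genes tested on that chromosome as a blue bar. The bar of chromosome 8 stands above 0 in all 3 panels, at 0.26, 0.27 and 0.25, and that of chromosome X under 0.

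Of 8 members tied to pluripotency (Zfp143, Zfp148, Zfp207, Zfp217, Zfp281, Zfp296, Zfp462 and Zfp706), 1, 0 and 1 were called in Hmgn1-/-, Hmgn2-/- and Hmgn1-/-Hmgn2-/-, where 17.3%, 9.97% and 18.0% of all genes were, and their median log2 FCs were 0.055, -0.0033 and 0.044. The called member was Zfp462, which works with the H3K9 methyltransferases G9a and GLP to hold back differentiation genes. It stood at 106, 121 and 106 CPM in the WT libraries, 157, 164 and 134 CPM in Hmgn1-/-, 174, 151 and 94.7 CPM in Hmgn2-/- and 163, 149.5 and 132 CPM in Hmgn1-/-Hmgn2-/-. Hmgn2-/- replicate 3 was under all WT libraries, while the other 8 knockout libraries were above them. Zfp462 had log2 FCs against WT of 0.48 (SE 0.078, edgeR's adjusted p = 4.14e-04) in Hmgn1-/-, 0.37 (SE 0.16, edgeR's adjusted p = 0.150) in Hmgn2-/- and 0.44 (SE 0.078, edgeR's adjusted p = 8.44e-04) in Hmgn1-/-Hmgn2-/-. Its calls held without each library in turn, but in a single fit of 12 libraries edgeR's adjusted p was 0.0314 in Hmgn1-/- and 0.0454 in Hmgn1-/-Hmgn2-/-, not called. Without Hmgn2-/- replicate 3, Zfp462 had a log2 FC of 0.58 in Hmgn2-/- at edgeR's adjusted p 3.18e-04, where the 11 other fits ran from 3.18e-04 to 0.400.

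Zfp281, which binds the Nanog promoter and brings in NuRD, stood at 148, 166 and 170.2 CPM in the WT libraries, 139, 141 and 142 CPM in Hmgn1-/-, 153, 138 and 103 CPM in Hmgn2-/- and 150.2, 135 and 136 CPM in Hmgn1-/-Hmgn2-/-. The Hmgn1-/- libraries were all under WT, and the other knockouts overlapped it. Zfp281 had log2 FCs of -0.18 in Hmgn1-/-, -0.26 in Hmgn2-/- and -0.18 in Hmgn1-/-Hmgn2-/-, with edgeR's adjusted p at 0.0463, 0.159 and 0.0518, short of the limit. Without WT replicate 1 it was called in Hmgn1-/- (edgeR's adjusted p 0.00237) and in Hmgn1-/-Hmgn2-/- (0.00381), and in no other fit. Zfp706 stood at 199, 195 and 196 CPM in the WT libraries, 174, 172 and 175 CPM in Hmgn1-/-, 188, 181 and 187 CPM in Hmgn2-/- and 194, 174 and 185 CPM in Hmgn1-/-Hmgn2-/-. Its knockout libraries all lay under its WT libraries, whose range was 195 to 199 CPM. Zfp706 had log2 FCs of -0.16 in Hmgn1-/-, -0.05 in Hmgn2-/- and -0.078 in Hmgn1-/-Hmgn2-/- with edgeR's adjusted p at 0.0319, 0.699 and 0.316, so that it was not called. Zfp296, a partner of Klf4, varied more between replicates than between genotypes, from 55.9 to 85.8 CPM within WT.

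KRAB proteins with known silencing targets were counted next: Zfp266, Zfp445, Zfp568, Zfp809, Zfp819 and Zfp932, with Zfp708 (4.03 CPM in WT) under the limit. None of the 7 was called in any knockout by edgeR's test (all genes 17.3%, 9.97% and 18.0%), and DESeq2 called 0, 0 and 0. An unadjusted p under 0.05 was reached by 1, 2 and 1 of them. Over all genes tested, 5382 of 13917, 4358 of 14047 and 5499 of 14128 passed that limit. Zfp809, which silences proviruses that use the proline tRNA as primer, stood at 19.5, 21.5 and 21.4 CPM in the WT libraries, 16.8, 16.6 and 16.3 CPM in Hmgn1-/-, 16.8, 16.3 and 16.3 CPM in Hmgn2-/- and 18.6, 16.9 and 16.7 CPM in Hmgn1-/-Hmgn2-/-. Its knockout libraries all lay under its WT libraries. Zfp809 had log2 FCs against WT of -0.30 (SE 0.09, edgeR's adjusted p = 0.0223) in Hmgn1-/-, -0.30 (SE 0.10, edgeR's adjusted p = 0.0570) in Hmgn2-/- and -0.24 (SE 0.091, edgeR's adjusted p = 0.0664) in Hmgn1-/-Hmgn2-/-, not called. Without WT replicate 1 it was called in Hmgn1-/- (edgeR's adjusted p 0.00806), and in no other fit. Zfp445, a guard of imprinted genes beside Zfp57, stood at 94.5, 92.1 and 89.7 CPM in the WT libraries, 103, 96.8 and 93.5 CPM in Hmgn1-/-, 109.6, 100.4 and 78.6 CPM in Hmgn2-/- and 105, 94.5 and 93.2 CPM in Hmgn1-/-Hmgn2-/-. The groups overlapped, and Hmgn2-/- replicate 3 was the lowest library. Zfp445 had log2 FCs of 0.11 in Hmgn1-/-, 0.10 in Hmgn2-/- and 0.10 in Hmgn1-/-Hmgn2-/-.

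Members that act on RNA, translation or ubiquitin numbered 11 in the tables (Zfp36, Zfp91, Zfp106, Zfp207, Zfp326, Zfp330, Zfp346, Zfp593, Zfp598, Zfp622 and Zfp830), and 1, 0 and 1 of them were called (all genes 17.3%, 9.97% and 18.0%). That was Zfp36, or tristetraprolin, which binds AU-rich elements of short-lived mRNAs through fingers of the CCCH kind. It stood at 22.1, 17.4 and 20.2 CPM in the WT libraries, 31.9, 26.1 and 25.3 CPM in Hmgn1-/-, 32.7, 23.1 and 24.1 CPM in Hmgn2-/- and 30.8, 23.6 and 30.5 CPM in Hmgn1-/-Hmgn2-/-. All knockout libraries were above WT. Zfp36 had log2 FCs against WT of 0.50 (SE 0.11, edgeR's adjusted p = 0.00359) in Hmgn1-/-, 0.45 (SE 0.14, edgeR's adjusted p = 0.0445) in Hmgn2-/- and 0.52 (SE 0.11, edgeR's adjusted p = 0.00363) in Hmgn1-/-Hmgn2-/-. Zfp36 lost its call in Hmgn1-/- without WT replicate 2 or 3 or Hmgn1-/- replicate 1 (edgeR's adjusted p 0.0106 to 0.0260) and in Hmgn1-/-Hmgn2-/- without WT replicate 2 or 3 or Hmgn1-/-Hmgn2-/- replicate 1 or 3 (edgeR's adjusted p 0.0135 to 0.0223). Zfp106, the most abundant member by CPM, stood at 524, 552 and 529.6 CPM in the WT libraries, 562, 548 and 516 CPM in Hmgn1-/-, 612, 563 and 449 CPM in Hmgn2-/- and 610.4, 575 and 527 CPM in Hmgn1-/-Hmgn2-/-. Its groups overlapped, with Hmgn2-/- libraries both highest and lowest. Zfp106 had log2 FCs of 0.041 in Hmgn1-/-, 0.051 in Hmgn2-/- and 0.11 in Hmgn1-/-Hmgn2-/-, and Zfp598 of 0.10 in Hmgn1-/-, 0.072 in Hmgn2-/- and 0.016 in Hmgn1-/-Hmgn2-/-. Neither was called.

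Members of other known roles were 8 (Zfp110, Zfp131, Zfp219, Zfp318, Zfp335, Zfp384, Zfp423 and Zfp644), while Zfp503, Zfp521, Zfp703 and Zfp711 lay under the limit. Of the 12 together, edgeR called 2, 0 and 1 (all genes 17.3%, 9.97% and 18.0%) and DESeq2 2, 1 and 1, namely Zfp423 and, in Hmgn1-/-, Zfp110, which binds the neurotrophin receptor Ngfr. In Hmgn2-/- Zfp423 was called by DESeq2, and by edgeR's test with no filter beyond 1 count, in a single fit and without Hmgn2-/- replicate 3, and Zfp703 was called lower in each knockout without WT replicate 1. Zfp110 stood at 81.2, 80.3 and 80.2 CPM in the WT libraries, 90.6, 94.0 and 92.3 CPM in Hmgn1-/-, 86.7, 87.1 and 79.5 CPM in Hmgn2-/- and 91.8, 84.4 and 90.8 CPM in Hmgn1-/-Hmgn2-/-. Hmgn2-/- replicate 3 lay under WT, and every other knockout library above it. Zfp110 had log2 FCs against WT of 0.22 (SE 0.056, edgeR's adjusted p = 0.00988) in Hmgn1-/-, 0.10 (SE 0.074, edgeR's adjusted p = 0.383) in Hmgn2-/- and 0.16 (SE 0.059, edgeR's adjusted p = 0.0559) in Hmgn1-/-Hmgn2-/-. Zfp110 lost its call in Hmgn1-/- without WT replicate 1, 2 or 3 or Hmgn1-/- replicate 1, 2 or 3 (edgeR's adjusted p 0.0136 to 0.0570).

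The proteins through which KRAB zinc fingers silence were counted as well, though they are not members: 18 of 19 listed genes were in the tables, and 1, 1 and 2 were called by edgeR's test (all genes 17.3%, 9.97% and 18.0%) and 4, 1 and 2 by DESeq2, which in Hmgn1-/- added Wiz (log2 FC 0.26), Ehmt2 (0.21) and Atrx (-0.21). Trim28, the co-repressor that the KRAB box binds, stood at 3219, 3679.9 and 3392 CPM in the WT libraries, 3203, 3327 and 3055 CPM in Hmgn1-/-, 3157, 3204 and 2809.8 CPM in Hmgn2-/- and 3136, 3186 and 2916 CPM in Hmgn1-/-Hmgn2-/-. It overlapped WT in Hmgn1-/-, and all libraries of the other 2 knockouts lay under the WT range. Trim28 had log2 FCs of -0.08 in Hmgn1-/-, -0.13 in Hmgn2-/- and -0.14 in Hmgn1-/-Hmgn2-/- with edgeR's adjusted p at 0.351, 0.328 and 0.0963, not called. Ehmt2, which encodes G9a, was called higher in Hmgn2-/- and Hmgn1-/-Hmgn2-/-, with log2 FCs of 0.21 in Hmgn1-/-, 0.36 in Hmgn2-/- and 0.35 in Hmgn1-/-Hmgn2-/-. Chd3, a NuRD remodeller, was called higher in Hmgn1-/- (log2 FCs 0.45 in Hmgn1-/-, 0.057 in Hmgn2-/- and 0.034 in Hmgn1-/-Hmgn2-/-), and Cbx1, an HP1 protein, lower in Hmgn1-/-Hmgn2-/- (log2 FCs -0.19 in Hmgn1-/-, -0.19 in Hmgn2-/- and -0.25 in Hmgn1-/-Hmgn2-/-). Ehmt2 lost its call in Hmgn2-/- without WT replicate 1, 2 or 3 or Hmgn2-/- replicate 2 (edgeR's adjusted p 0.0260 to 0.0331). Chd3 lost its call in Hmgn1-/- without Hmgn1-/- replicate 1 (edgeR's adjusted p 0.0108). Cbx1 lost its call in Hmgn1-/-Hmgn2-/- without WT replicate 2 or Hmgn1-/-Hmgn2-/- replicate 1 or 2 (edgeR's adjusted p 0.0144 to 0.0297). In Hmgn1-/- the replicate block added Cbx1, Atrx, Ehmt2 and Wiz (edgeR's adjusted p 0.00178 to 0.00870). No filter beyond 1 count added Atrx, Ehmt2 and Wiz there, and leaving out Hmgn1-/- replicate 3 added Wiz. Atrx was also called lower without WT replicate 1 in Hmgn1-/- and Hmgn1-/-Hmgn2-/-. In Hmgn1-/-Hmgn2-/- it was called lower without Hmgn1-/-Hmgn2-/- replicate 1 as well.

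Comparing knockouts with each other uses no WT library, so these tests share no value with the limit on WT levels. The members were still chosen with earlier results of these data known. Between Hmgn2-/- and Hmgn1-/-, edgeR called 0 members (0.352% of all genes), and DESeq2 called 0. An unadjusted p under 0.05 was reached by 5 of 242 members and by 437 of all 13648 genes tested. Between Hmgn1-/-Hmgn2-/- and Hmgn2-/- the counts were 0 by edgeR (0.0434% of all genes), 5 at an unadjusted p under 0.05 and 0 by DESeq2. Without Hmgn2-/- replicate 3 they were 0 in both, with 6 and 4 at an unadjusted p under 0.05. Leaving out Hmgn2-/- replicate 1 also gave 0 in both, with 11 and 13 at that limit. Between Hmgn1-/-Hmgn2-/- and Hmgn1-/-, 1 member was called by each tool (1.09% of all genes by edgeR), Zfp951. It was higher in the double knockout, 3.26, 3.88 and 3.597 CPM against 1.54, 1.33 and 1.5 CPM, with a log2 FC of 1.28 (SE 0.19, edgeR's adjusted p = 0.00146). Zfp951 lost its call without Hmgn1-/- replicate 2 or Hmgn1-/-Hmgn2-/- replicate 2 (edgeR's adjusted p 0.0113 to 0.0116). With the replicate block the counts in these 3 comparisons were 0, 0 and 1. Members at an unadjusted p under 0.05 were then 6, 14 and 13, beside 5, 5 and 4 without the block. Between Hmgn1-/-Hmgn2-/- and Hmgn1-/-, 1306 of all 13710 genes tested passed that limit without the block. An unadjusted limit also passes genes with no difference, so these counts are not calls. Of all genes, the block called 69, 77 and 408, beside 48, 6 and 150 without it. Against Hmgn2-/- the log2 FC of Zfp951 in the double knockout was 0.86 (SE 0.18, edgeR's adjusted p = 0.170), not called, although all 3 libraries lay above.

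A single test for any difference among the 4 genotypes called 23 members (15.4% of all genes). Without WT replicate 2 it called 14 (all genes 9.83%), without WT replicate 3 it called 11 (all genes 9.12%), and with the replicate block 31 (all genes 20.5%). A further test asked whether Hmgn1-/-Hmgn2-/- departs from the sum of both single knockouts on the log2 scale, and called 11 members (6.32% of all genes), 5 with a positive and 6 with a negative departure. A gene changed by the same amount in all 3 knockouts departs by that amount with the sign turned, and WT enters the contrast. Zfp951 had the largest departure, 3.67 (SE 0.22, edgeR's adjusted p = 2.66e-07), its fall in the double knockout being smaller than in either single one. Zfp600 departed by 1.11 (SE 0.16) and Zfp827 by -1.13 (SE 0.20), and these 3 were called without each library in turn. The count was 7 without WT replicate 2 (all genes 4.40%), 5 without WT replicate 3 (all genes 4.02%), 4 without Hmgn1-/- replicate 1 (all genes 4.28%), 4 without Hmgn2-/- replicate 2 (all genes 4.41%), 6 without Hmgn1-/-Hmgn2-/- replicate 2 (all genes 4.24%) and 7 without Hmgn1-/-Hmgn2-/- replicate 3 (all genes 4.37%). With the replicate block it was 18 (all genes 10.2%), and by DESeq2 17 (all genes 6.84%).

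The 3 Zfp genes left out by name gave a frame for the members. Zfp42, or Rex1, a marker of naive mESCs, stood at 451, 467 and 487 CPM in the WT libraries, 441, 489.7 and 491 CPM in Hmgn1-/-, 411, 496 and 464 CPM in Hmgn2-/- and 418, 483 and 478 CPM in Hmgn1-/-Hmgn2-/-. Zfp57, the KRAB protein that guards imprints, stood at 455, 529 and 515 CPM in the WT libraries, 535, 527 and 543 CPM in Hmgn1-/-, 488, 533 and 521 CPM in Hmgn2-/- and 499.6, 574 and 507 CPM in Hmgn1-/-Hmgn2-/-. Their groups overlapped, and neither was called in a knockout. Zfp352, a gene of the early embryo, stood at 0.859, 0.397 and 0.386 CPM in the WT libraries, 0.0385, 0 and 0 CPM in Hmgn1-/-, 0.0772, 0 and 0.0577 CPM in Hmgn2-/- and 0, 0.226 and 0.341 CPM in Hmgn1-/-Hmgn2-/-, low in every library. It was called lower in Hmgn2-/-, with a log2 FC of -3.54 (SE 0.74, edgeR's adjusted p = 0.00637). Zfp352 lost its call in Hmgn2-/- without WT replicate 2 or 3 or Hmgn2-/- replicate 2 (edgeR's adjusted p 0.0108 to 0.0314). Without WT replicate 1, its highest library, it did not pass the filter. In Hmgn1-/- its counts were too few to pass edgeR's filter, while each other fit that it entered called it lower, DESeq2 among them (log2 FC -5.12, DESeq2's adjusted p 0.00202).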

How the data were processed

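RNA of 12 libraries, 3 of each of 4 genotypes, was measured as raw counts per gene, which the authors deposited after aligning reads to mm10 with STAR; the study's own tests used DESeq2, and the counting program, annotation and strand setting are not stated. The files give 1 count for each of 23412 genes. Members and gene lists were chosen with earlier results of these data known. CPM is a count over its column total. Each comparison of 2 genotypes was fitted on its 6 libraries with edgeR 4.0.16 in R 4.3.3 (TMM scaling, filterByExpr, quasi-likelihood test, two-sided), and the test of any difference and of additivity on all 12. P-values were adjusted by Benjamini-Hochberg over all genes tested, and called under 0.01. The procedure was tested on simulated data. Alternatives were DESeq2 1.42.0, RLE scaling, no filter beyond 1 count, a single fit of 12 libraries, replicate number as a block, an adjusted p under 0.05, each library left out, and other member limits. Members off chromosome 8 were added after seeing the data. Over genes, libraries of 1 replicate number resembled each other at r = 0.182, 0.0464 and 0.172 across Hmgn1-/- and WT, 0.0972, 0.131 and 0.0454 across Hmgn2-/- and WT, and 0.167, 0.118 and 0.100 across Hmgn1-/-Hmgn2-/- and WT, so pairing was tried as a block. Between knockouts these r were 0.184, 0.0939 and 0.203 across Hmgn2-/- and Hmgn1-/-. They were 0.149, 0.0169 and 0.192 across Hmgn1-/-Hmgn2-/- and Hmgn1-/-, and 0.301, 0.0434 and 0.238 across Hmgn1-/-Hmgn2-/- and Hmgn2-/-. In these last 2 comparisons the highest r of replicate 2 with another number was 0.0174 and 0.0459, above that with its own number. In every other case it was lower, though by little for replicate 3 across Hmgn2-/- and WT (0.0375). Exon lengths, positions and coding sequences came from GENCODE for GRCm38. A KRAB box was a stretch of 25 residues with at least 11 identities to a consensus built from the Zfp proteins. Named genes were members past a log2 FC of 1 in size, the 5 largest rises and falls per knockout without overlap of libraries, calls between knockouts or from additivity, the 5 highest by CPM and per kb, gene lists, and the neighbours of the limit; others named were chosen after their values were seen. Totals ran from 17337908 to 31448468 counts.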

Additional observations from a re-analysis of the deposited data

Results flagged for a closer look

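Departures of Hmgn1-/-Hmgn2-/- from the sum of both single knockouts were called for 11 members by edgeR's adjusted p under 0.01. Positive departures on the log2 scale were 3.67 for Zfp951, 1.95 for Zfp608, 1.12 for Zfp946, 1.11 for Zfp600 and 0.53 for Zfp534, all members that fell in single knockouts. Negative departures were -1.13 for Zfp827, -0.69 for Zfp523, -0.66 for Zfp358, -0.47 for Zfp746, -0.46 for Zfp740 and -0.46 for Zfp777, all members that rose in at least 1 single knockout. Since WT enters the contrast, a gene that moves alike in all 3 knockouts departs by that amount with the sign turned. Zfp951, Zfp608 and Zfp946 are members through their WT level alone, which favours a positive departure. Zfp951 also differed between 2 knockouts without any WT library: it was higher in Hmgn1-/-Hmgn2-/- than in Hmgn1-/- by a log2 FC of 1.28. Calls of Zfp951, Zfp600 and Zfp827 on additivity held without each library in turn, and each of the other 8 departures lost its call without at least 1. Zfp608 lost its call without Hmgn1-/- replicate 1 or 3, Hmgn2-/- replicate 2 or Hmgn1-/-Hmgn2-/- replicate 1 (edgeR's adjusted p 0.0102 to 0.0130). Zfp946 lost its call without Hmgn1-/- replicate 1, Hmgn2-/- replicate 2 or Hmgn1-/-Hmgn2-/- replicate 1 or 2 (edgeR's adjusted p 0.0116 to 0.0134). Zfp534 lost its call without WT replicate 3, Hmgn1-/- replicate 1 or 2, Hmgn2-/- replicate 2 or Hmgn1-/-Hmgn2-/- replicate 1 or 3 (edgeR's adjusted p 0.0156 to 0.0194). Zfp523 lost its call without WT replicate 3, Hmgn1-/- replicate 1 or Hmgn2-/- replicate 2 (edgeR's adjusted p 0.0104 to 0.0109). Zfp358 lost its call without WT replicate 2 or 3, Hmgn1-/- replicate 2 or 3, Hmgn2-/- replicate 1 or 2 or Hmgn1-/-Hmgn2-/- replicate 1 or 2 (edgeR's adjusted p 0.0109 to 0.0206). Zfp746 lost its call without WT replicate 2 or 3, Hmgn1-/- replicate 1, Hmgn2-/- replicate 2 or Hmgn1-/-Hmgn2-/- replicate 2 or 3 (edgeR's adjusted p 0.0104 to 0.0133). Zfp740 lost its call without WT replicate 2 or 3, Hmgn1-/- replicate 1, Hmgn2-/- replicate 2 or Hmgn1-/-Hmgn2-/- replicate 2 or 3 (edgeR's adjusted p 0.0131 to 0.0187). Zfp777 lost its call without WT replicate 1, 2 or 3, Hmgn1-/- replicate 1, 2 or 3, Hmgn2-/- replicate 1 or 2 or Hmgn1-/-Hmgn2-/- replicate 2 or 3 (edgeR's adjusted p 0.0120 to 0.0228). Against Hmgn1-/-, Zfp951 lost its call without Hmgn1-/- replicate 2 or Hmgn1-/-Hmgn2-/- replicate 2 (edgeR's adjusted p 0.0113 to 0.0116).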

How the results depend on the processing

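No call of a member against WT and no called departure changed sign under any alternative. Leaving out each library in turn gave 17 to 37 called members in Hmgn1-/- (all genes 11.2% to 21.9%), 5 to 22 in Hmgn2-/- (all genes 5.10% to 13.5%), 15 to 35 in Hmgn1-/-Hmgn2-/- (all genes 11.9% to 21.2%), 0 to 1 between Hmgn1-/-Hmgn2-/- and Hmgn1-/-, 11 to 31 for any difference (all genes 9.12% to 18.9%) and 4 to 14 for additivity (all genes 4.02% to 7.53%). In these fits 16 of 30, 10 of 15 and 21 of 32 called members lost their call at least once. With a log2 FC of at least 1 the leave-out counts were 3 to 4, 4 to 5 and 3 to 4 in the 3 knockouts. The replicate block gave 49 in Hmgn1-/- (20.2%, where all genes went from 17.3% to 24.4%) and 18 for additivity, for which DESeq2 gave 17. A single fit of 12 libraries gave 24, 25 and 23 in the 3 knockouts, and 6 of 30, 0 of 15 and 10 of 32 calls were lost in it. An adjusted p under 0.05 gave 61 in Hmgn1-/- (25.2%, all genes 28.4%), 30 in Hmgn2-/- (12.4%, all genes 18.9%) and 46 in Hmgn1-/-Hmgn2-/- (19.0%, all genes 29.0%). Choosing members by the mean of 12 libraries (240 genes, 237 shared) gave 1, 2 and 1 past a log2 FC of 1, since Zfp951, Zfp608 and Zfp946, members that fell, drop out of that list. Members of at least 10 CPM in WT (175) gave 3 in Hmgn2-/- and 2 in Hmgn1-/-Hmgn2-/- past that limit, being fewer genes. Without chromosome 8 members, chosen after seeing the data, 22, 14 and 25 were called. Of these, 14, 8 and 15 were higher (6.25%, 3.57% and 6.70%, all genes off chromosome 8 5.63%, 2.53% and 6.19%). The other 8, 6 and 10 were lower (3.57%, 2.68% and 4.46%, all genes off chromosome 8 10.4%, 6.92% and 10.6%). Median log2 FCs of the members ran from 0.058 to 0.070, -0.011 to 0.055 and 0.014 to 0.055. For the other changes the cause was not tested. At 5 CPM a library held 86.7 to 157 counts, which limits the precision of the least abundant members.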
